A study of Mus musculus with 12 samples.

Results

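The B cell and plasma cell genes described here are Jchain, Mzb1, Tnfrsf17, Cd79a, Cd79b, Ms4a1 and Pou2af1. They were taken by gene symbol from the deposited expression table, which held all 7 among its 16942 genes. RNA was sequenced from small intestine of ICR mice, an outbred stock, in 12 libraries that form 4 groups of 3. The group AOS0 received neither agent, AOS10 received AOS at the labelled level of 10, B+A0 received busulfan with AOS at 0, and B+A10 received busulfan with AOS at 10. Busulfan is an alkylating agent that is toxic to dividing blood-forming cells. The labels expand neither AOS nor its unit, and they give no age, sex, dose of busulfan or time after treatment. They also leave unsaid whether the libraries of a group are separate animals, so every p-value below describes spread between libraries that may be technical in part. No member passed edgeR's test in any comparison, and their counts were low; DESeq2, run as an alternative, called Jchain in 3 comparisons. The clearest separation was that of Jchain, whose mean in B+A0 was 0.303 times that in AOS0.

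B cells carry membrane antibody as their antigen receptor, and the receptor signals into the cell through a dimer of the CD79A and CD79B proteins. After activation, B cells can become plasma cells, which secrete antibody. The gut wall holds many plasma cells that make immunoglobulin A (IgA), whose units are joined by the J chain and carried across the epithelium by the polymeric immunoglobulin receptor, encoded by Pigr. The mucosa also has B cell follicles, in Peyer's patches and smaller isolated follicles, which supply many of these cells.

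Among the members, Jchain encodes the J chain itself (mm10 chromosome 5, 88519809 to 88527891, minus strand). Mzb1 encodes a chaperone of the endoplasmic reticulum that helps antibody assembly and secretion, and Tnfrsf17 encodes BCMA, the receptor that keeps plasma cells alive on the ligand APRIL (chromosome 16, 11313812 to 11320074, plus strand). Cd79a (chromosome 7, 24897381 to 24902197, plus strand) and Cd79b (chromosome 11, 106311341 to 106314762, minus strand) encode the receptor's signalling chains. Ms4a1 encodes CD20, a surface protein of mature B cells (chromosome 19, 11249675 to 11266241, minus strand). Pou2af1 encodes OCA-B, a coactivator that B lineage cells use with octamer-binding factors (chromosome 9, 51213708 to 51240080, plus strand). These positions are those of the protein-coding genes in GENCODE M21. The models of Jchain, Cd79a, Cd79b and Tnfrsf17 overlapped no other gene there. Mzb1 shared 2100 bases with Spata24 on its own strand, Ms4a1 lay within the antisense gene 4930526L06Rik, and Pou2af1 held the intronic gene Gm47828. No source used here states whether reads were counted by strand, and the values of those 3 members may include reads of their overlapping partners.

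Promoter windows in the RefSeq table (GRCm38.p6) were present for 4 of the 7 members, Jchain, Pou2af1, Cd79a and Tnfrsf17. The windows of Jchain, the member with the most counts, and of Pou2af1, whose product acts at octamer sequences, are printed as the 250 bases that end just before the transcript start, 5′ to 3′ along the gene's strand. They lie at chr5:88527898-88528147 (minus strand) and chr9:51213440-51213689 (plus strand).
Jchain: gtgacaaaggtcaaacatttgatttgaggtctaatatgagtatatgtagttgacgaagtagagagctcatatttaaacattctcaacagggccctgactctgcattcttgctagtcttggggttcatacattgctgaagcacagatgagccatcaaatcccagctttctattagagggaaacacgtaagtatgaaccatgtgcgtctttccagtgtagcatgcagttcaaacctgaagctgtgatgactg
Pou2af1: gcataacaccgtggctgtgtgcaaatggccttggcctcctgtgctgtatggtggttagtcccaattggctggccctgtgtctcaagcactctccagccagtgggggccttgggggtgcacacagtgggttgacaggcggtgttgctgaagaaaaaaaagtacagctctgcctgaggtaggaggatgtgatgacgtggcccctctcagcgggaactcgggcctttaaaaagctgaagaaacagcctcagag
No letter is in capitals because none of the motifs searched was found in either window. The search covered both strands, and each motif's share among 32841 windows of the same length is given beside it. The octamer bound by OCA-B's partners, ATGCAAAT, was held by 1.6% of those windows. The core of the PU.1 site, a factor of B cells and myeloid cells, was searched as GAGGAA and was held by 23.3%. An E-box of the kind bound by the B lineage factor E2A was searched as CAGCTG and occurred in 13% of the windows. The letters of a TATA box, at which the general transcription machinery can assemble, were searched as TATAAA and occurred in 12.4%, and the EBF1 core in 0.78%. The PU.1 core matched once in the Cd79a window and once in that of Tnfrsf17, which also held the TATA letters once. These matches are letters in a window, and no factor's binding was measured here.

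Libraries held 13560231 to 16818245 counts, so that 1 count was worth 0.0596 to 0.0740 CPM, the count scaled by library total and by TMM factors of 0.969 to 1.05. Enterocyte markers were abundant, with group means of their summed level from 7594 to 9809 CPM over Vil1, Fabp2, Sis, Apoa1, Alpi and Epcam, and goblet and Paneth cell markers were abundant too. Of the 4 markers of liver, pancreas or stomach, Alb, Prss2 and Gkn1 had 10, 1 and 1 counts over all libraries. The remaining marker, Cela1, which encodes an elastase, was above 0 in every library, at group means of 3.17 to 3.42 CPM. A gene could be tested when it passed edgeR's filter on low counts, as 12329 genes did. Jchain, Cd79a and Cd79b passed it. The other 4 members did not and are given as counts, with no test.

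Per transcript length, Jchain and Cd79b were the most abundant members. On the deposited FPKM scale (counts scaled by transcript length and library total), Jchain averaged 1.58 over the 12 libraries, with a range of 0.59 to 5.27. Cd79b averaged 1.40 (0.66 to 2.59), and Jchain was above it in 6 of 12 libraries, so their order is not settled. Cd79a followed at 0.50 FPKM (0.05 to 1.48) and was below Cd79b in all 12. Mzb1 averaged 0.24 FPKM and Pou2af1 0.20, each above the other in 6 libraries. Ms4a1 averaged 0.105 FPKM and was below Pou2af1 in 11 of 12. Tnfrsf17 was the lowest at 0.028 FPKM.

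The secretory genes come first. Jchain had 69, 44 and 141 counts in AOS0 replicates 1 to 3, which is 4.47, 2.89 and 10.4 CPM. In AOS10 it had 27, 38 and 63 counts, or 1.66, 2.46 and 4.21 CPM. In B+A0 it had 36, 19 and 33 counts, or 2.26, 1.13 and 2.00 CPM, and in B+A10 it had 23, 46 and 25 counts, or 1.39, 2.88 and 1.53 CPM. Every library of both busulfan groups lay below every AOS0 library, though B+A10 replicate 2 at 2.88 CPM came close to AOS0 replicate 2 at 2.89 CPM. The AOS10 libraries overlapped with all other groups, and AOS0 replicate 3 stood well above the rest.

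Mzb1 had 6, 4 and 4 counts in AOS0, 2, 3 and 5 in AOS10, 3, 1 and 2 in B+A0, and 1, 2 and 3 in B+A10. In CPM, the AOS0 range of 0.262 to 0.389 did not overlap with the 0.0596 to 0.188 of B+A0 or the 0.0606 to 0.184 of B+A10, but these are differences of a few counts. Tnfrsf17 had 4 counts in all: 1 in AOS0 replicate 3, 1 in B+A0 replicate 2, and 1 each in B+A10 replicates 1 and 3. It was at 0 in 8 libraries. A count of 0 allows a level of up to 3 counts, or 0.179 to 0.222 CPM depending on the library, so no group difference in Tnfrsf17 was detectable at this depth. Such limits allow for counting error only. Low counts here also carry the spread between libraries, and duplicate reads cannot be told from separate molecules.

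The receptor chains did not move together. Cd79a had 12, 6 and 24 counts in AOS0, 5, 5 and 7 in AOS10, 29, 4 and 3 in B+A0, and 6, 1 and 8 in B+A10. Its highest library was B+A0 replicate 1 at 1.82 CPM, about level with AOS0 replicate 3 at 1.78 CPM, while the other B+A0 libraries were at 0.238 and 0.182 CPM. The groups overlapped in all 5 pairings. Cd79b had 17, 20 and 27 counts in AOS0, 16, 35 and 23 in AOS10, 36, 23 and 48 in B+A0, and 23, 12 and 12 in B+A10. It was highest in B+A0 replicate 3 (2.91 CPM), where Cd79a had only 3 counts.

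The 2 chains form a dimer in the receptor, but their transcripts differed in ratio from library to library. By FPKM, Cd79b exceeded Cd79a by 1.22 to 17.3 times, with a median of 3.6. The lowest ratios were in AOS0 replicate 3 (1.22), B+A0 replicate 1 (1.35), AOS0 replicate 1 (1.53) and B+A10 replicate 3 (1.62). The highest were in B+A0 replicate 3 (17.3) and B+A10 replicate 2 (13.2), where Cd79a rested on 3 and 1 counts. High and low ratios occurred within both busulfan groups.

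Ms4a1 had 4, 4 and 8 counts in AOS0, 2, 5 and 1 in AOS10, 4, 3 and 0 in B+A0, and 1, 2 and 3 in B+A10. Its AOS0 libraries (0.259 to 0.592 CPM) lay above those of both busulfan groups, of which B+A0 replicate 1 came closest at 0.251 CPM. Pou2af1 had 6, 7 and 16 counts in AOS0, 6, 7 and 3 in AOS10, 12, 5 and 9 in B+A0, and 7, 9 and 3 in B+A10, and its groups overlapped throughout. AOS0 replicate 3 held the highest CPM of the 12 libraries for Jchain, Pou2af1 and Ms4a1. It was also highest for Tnfrsf17, but with 1 count, as in B+A0 replicate 2 and B+A10 replicates 1 and 3. A count was worth the most CPM in AOS0 replicate 3 (0.0740), which alone put it first for Tnfrsf17. Mzb1 was highest in AOS0 replicate 1, Cd79a in B+A0 replicate 1 and Cd79b in B+A0 replicate 3.

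**Figure D1:**
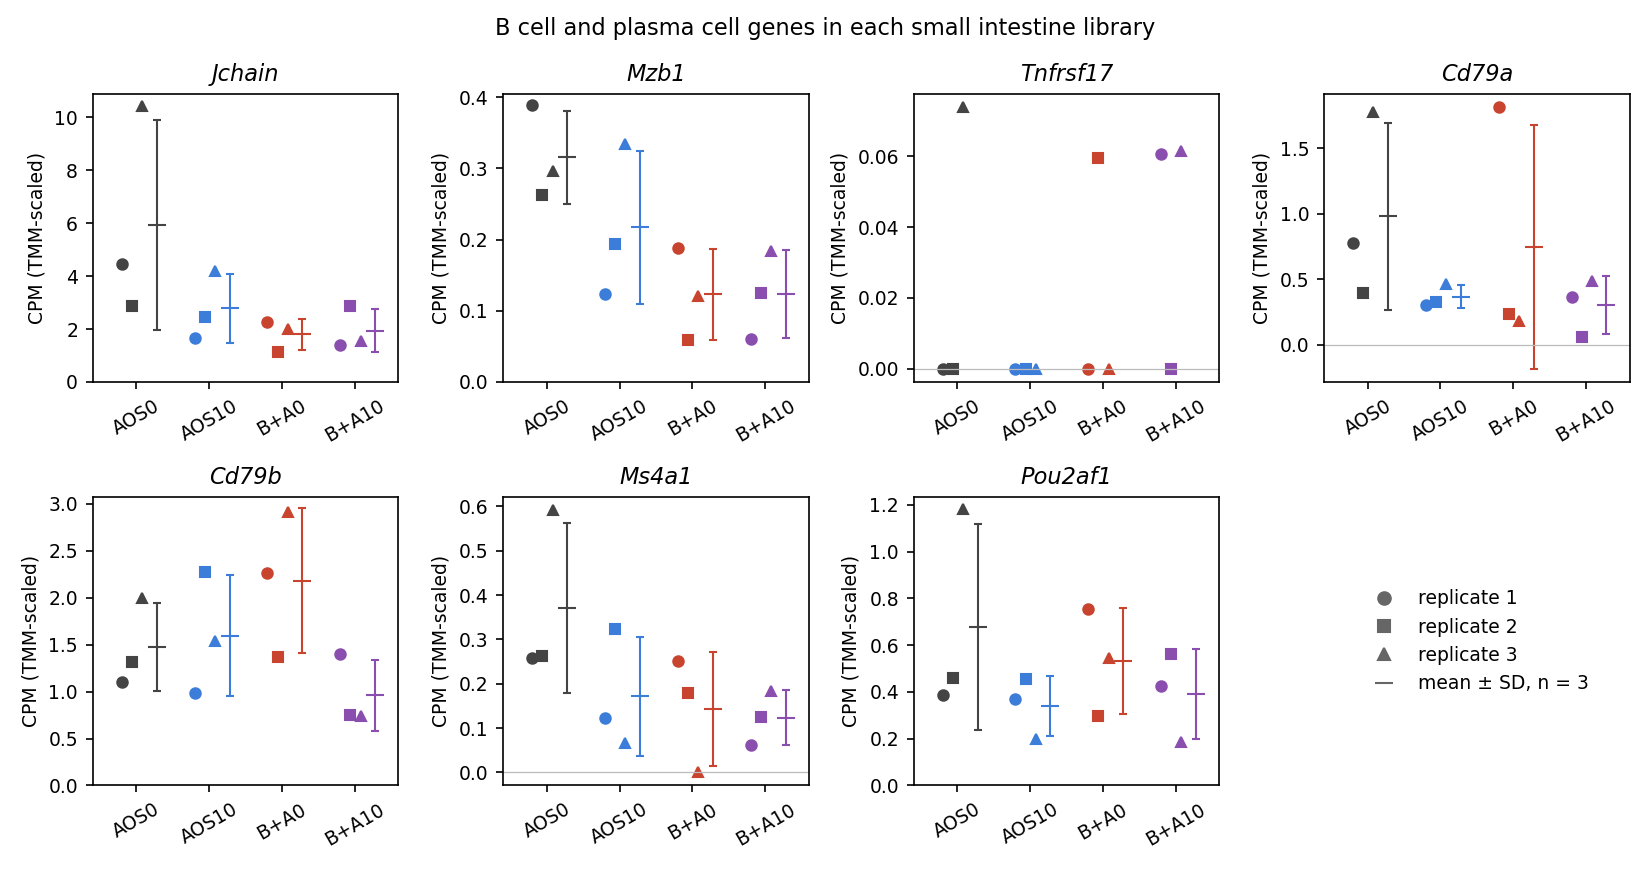
Each point is the level of 1 gene in 1 library, in CPM scaled by TMM, with colour for the group and shape for the replicate number. Bars give the mean ± SD (n = 3) except for Tnfrsf17, which has 0 or 1 count per library. For Jchain, Mzb1 and Ms4a1 all AOS0 points lie above all busulfan points. For Cd79a a single B+A0 library, replicate 1, lies far above its group.

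The comparison of B+A0 with AOS0 asks how busulfan alone related to each gene's level. Jchain averaged 5.93 ± 3.98 CPM in AOS0 and 1.80 ± 0.59 CPM in B+A0 (SD, n = 3). The log2 fold change was -1.71 (SE 0.49, 95% interval -2.77 to -0.65), and it did not pass over all genes (adjusted p = 0.0677, edgeR quasi-likelihood test with Benjamini-Hochberg adjustment). Without AOS0 replicate 3 the difference was -1.03 (adjusted p = 0.259, edgeR). DESeq2, with the same genes and libraries, gave -1.72 and an adjusted p of 0.0107, under the threshold, in a comparison where it called 1025 genes and edgeR 449. The 449 genes were 3.64% of those tested, and 0 of the 3 tested members was among them.

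Cd79b went the other way in the means of this comparison, from 1.47 ± 0.47 CPM in AOS0 to 2.18 ± 0.77 CPM in B+A0 (SD, n = 3; log2 fold change 0.57, 95% interval -0.27 to 1.42). Its adjusted p was 0.419 by edgeR, and the interval covers both directions. Cd79a had means of 0.982 ± 0.713 and 0.747 ± 0.930 CPM (SD, n = 3; log2 fold change -0.38, 95% interval -2.04 to 1.27). That Cd79a value rests on B+A0 replicate 1: without that library it was -2.15 (adjusted p = 0.0944, edgeR), and without AOS0 replicate 3 it was 0.33. Of the 7 members, Jchain, Mzb1 and Ms4a1 had B+A0 and AOS0 libraries that did not overlap, and 29% of all tested genes had the same separation. Among the 3 tested members only Jchain did, so the share is close to that background.

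Jchain's share of the members' own counts separated these groups as well, but it rests on the same Jchain counts. Its denominator includes Cd79b, which had 64 counts in AOS0 and 107 in B+A0. This share does not use the library total. It was 60.5%, 51.8% and 63.8% in AOS0 and 30%, 33.9% and 34.7% in B+A0. In AOS10 it was 46.6%, 40.9% and 61.8%, and in B+A10 it was 37.1%, 63.9% and 45.5%. The AOS0 and B+A0 libraries did not overlap, while AOS10 and B+A10 spanned most of the range between them. The share was computed after the values had been seen and is given with no test.

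**Figure D2:**
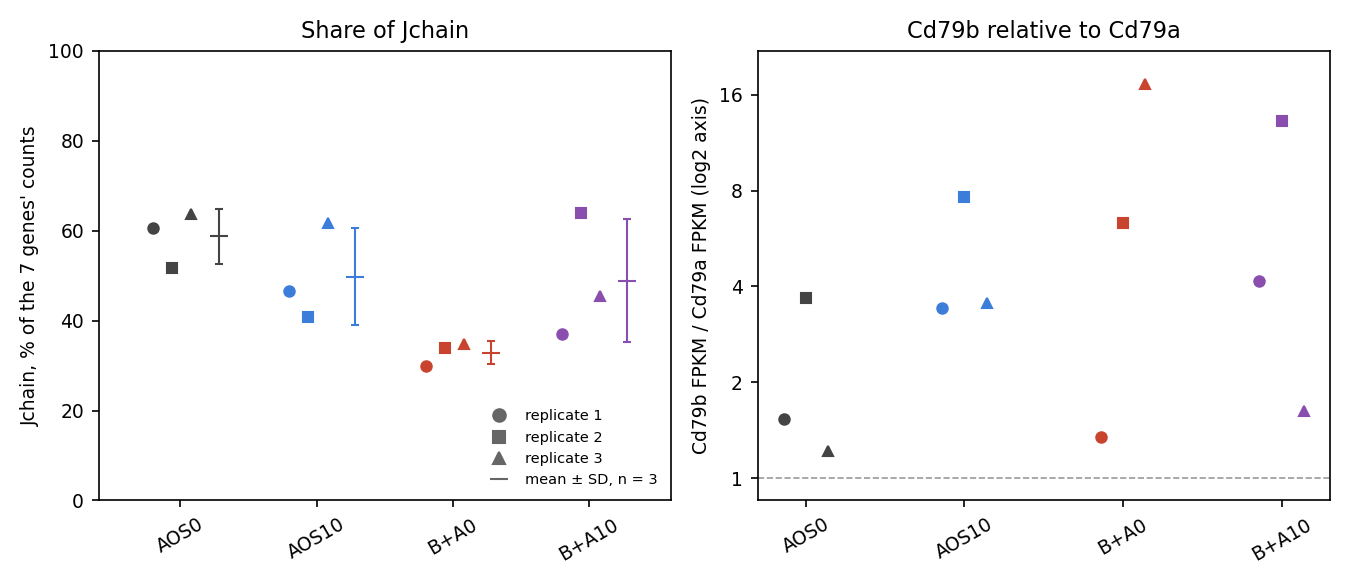
On the left, each point is the percentage of the 7 genes' summed counts that came from Jchain in 1 library, with the mean ± SD (n = 3). The B+A0 points lie between 30% and 34.7% and the AOS0 points between 51.8% and 63.8%. On the right, each point is the ratio of Cd79b to Cd79a FPKM in 1 library on a log2 axis, running from 1.22 to 17.3.

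The comparison of B+A10 with AOS0 sets both agents against neither, and it shares its AOS0 libraries with the comparison above. Jchain averaged 1.93 ± 0.82 CPM in B+A10 (SD, n = 3), with a log2 fold change of -1.60 (SE 0.49, 95% interval -2.66 to -0.55, adjusted p = 0.132, edgeR). It was -0.92 without AOS0 replicate 3 (adjusted p = 0.410, edgeR), and DESeq2 gave an adjusted p of 0.0311. Cd79a had a difference of -1.63 (95% interval -3.53 to 0.27) and Cd79b of -0.60 (-1.51 to 0.32). By edgeR no member was called, against 0.957% of the tested genes. Jchain, Mzb1 and Ms4a1 had no overlap between these groups, as had 17.9% of the tested genes. Among the 3 tested members only Jchain had none, and Mzb1 and Ms4a1, not tested, separated by a few counts.

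The busulfan comparison with AOS in both arms, B+A10 against AOS10, gave intervals that covered 0 for all 3 tested members. Jchain had a log2 fold change of -0.52 (95% interval -1.61 to 0.58, adjusted p = 0.789, edgeR), from 2.78 ± 1.30 CPM in AOS10. Cd79a gave -0.24 (-2.44 to 1.96) and Cd79b gave -0.72 (-1.62 to 0.18). None was called by edgeR, against 0.162% of tested genes, and no member's groups were free of overlap, against 14.9% of tested genes. Averaged over both AOS levels, a comparison added after the design was fixed, busulfan gave a Jchain difference of -1.11 (SE 0.35, 95% interval -1.87 to -0.35, adjusted p = 0.0763, edgeR). Its call passed with DESeq2 (adjusted p = 0.0191) and without B+A10 replicate 2 (adjusted p = 0.0485, edgeR). Cd79a and Cd79b had averaged differences of -0.31 (-1.69 to 1.06) and -0.07 (-0.69 to 0.54). Of the tested genes 6.03% were called in this average, and 0 of the 3 tested members.

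AOS alone, AOS10 against AOS0, gave a Jchain difference of -1.09 (SE 0.47, 95% interval -2.11 to -0.07), which did not pass over all genes (adjusted p = 0.798, edgeR). Without AOS0 replicate 3 it was -0.41. Cd79a gave -1.38 (-3.25 to 0.48) and was -0.67 without AOS0 replicate 3, and Cd79b gave 0.12 (-0.74 to 0.99). By edgeR no gene of any kind was called (0%), with 768 genes at an unadjusted p under 0.05. DESeq2 called 63 genes, edgeR fitted to the compared groups alone called 62, and edgeR with the replicate number as a block called 15. Without AOS10 replicate 3 edgeR called 13, and without a filter on low counts 8. No member was among the genes called in these fits. Every member's groups overlapped in this pairing, against 20.7% of tested genes whose groups did not.

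AOS on top of busulfan, B+A10 against B+A0, was the comparison in which Cd79b differed most. Cd79b averaged 0.960 ± 0.376 CPM in B+A10 against 2.18 ± 0.77 CPM in B+A0 (SD, n = 3). The log2 fold change was -1.17 (SE 0.40, 95% interval -2.04 to -0.30, unadjusted p = 0.0120, adjusted p = 0.383, edgeR), and the groups overlapped at 1 library: B+A10 replicate 1 was at 1.39 CPM and B+A0 replicate 2 at 1.37 CPM. Jchain gave 0.11 (-1.02 to 1.24). Cd79a gave -1.24 (-3.19 to 0.70), or 0.53 without B+A0 replicate 1. By edgeR no gene was called (0%), with 1210 at an unadjusted p under 0.05, while DESeq2 called 82. Leaving out B+A0 replicate 1 gave 45 calls by edgeR and leaving out B+A10 replicate 3 gave 51, none of them a member. Of the 7 members, 0 had groups that did not overlap, against 10.2% of tested genes.

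Whether the busulfan difference changed with AOS was tested as an interaction. By edgeR 0% of genes were called, with 844 at an unadjusted p under 0.05, and DESeq2 called 17, no member among them. The interaction of Cd79b was -1.30 (95% interval -2.53 to -0.06, unadjusted p = 0.0397, adjusted p = 0.692, edgeR). That of Jchain was 1.20 (-0.33 to 2.72, adjusted p = 0.761) and that of Cd79a was 0.14 (-2.61 to 2.90), both by edgeR. AOS averaged over both busulfan states, also added later, gave -0.49 (-1.25 to 0.27) for Jchain, -1.31 (-2.66 to 0.03) for Cd79a and -0.52 (-1.14 to 0.09) for Cd79b. All 3 estimates lay below 0 and none was called by edgeR, which called 0% of all genes, with 1191 at an unadjusted p under 0.05. DESeq2 called 92 genes there, edgeR with the replicate block 15, and edgeR without B+A0 replicate 1 or without B+A10 replicate 3 called 102 and 85, in each case no member.

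**Figure D3:**
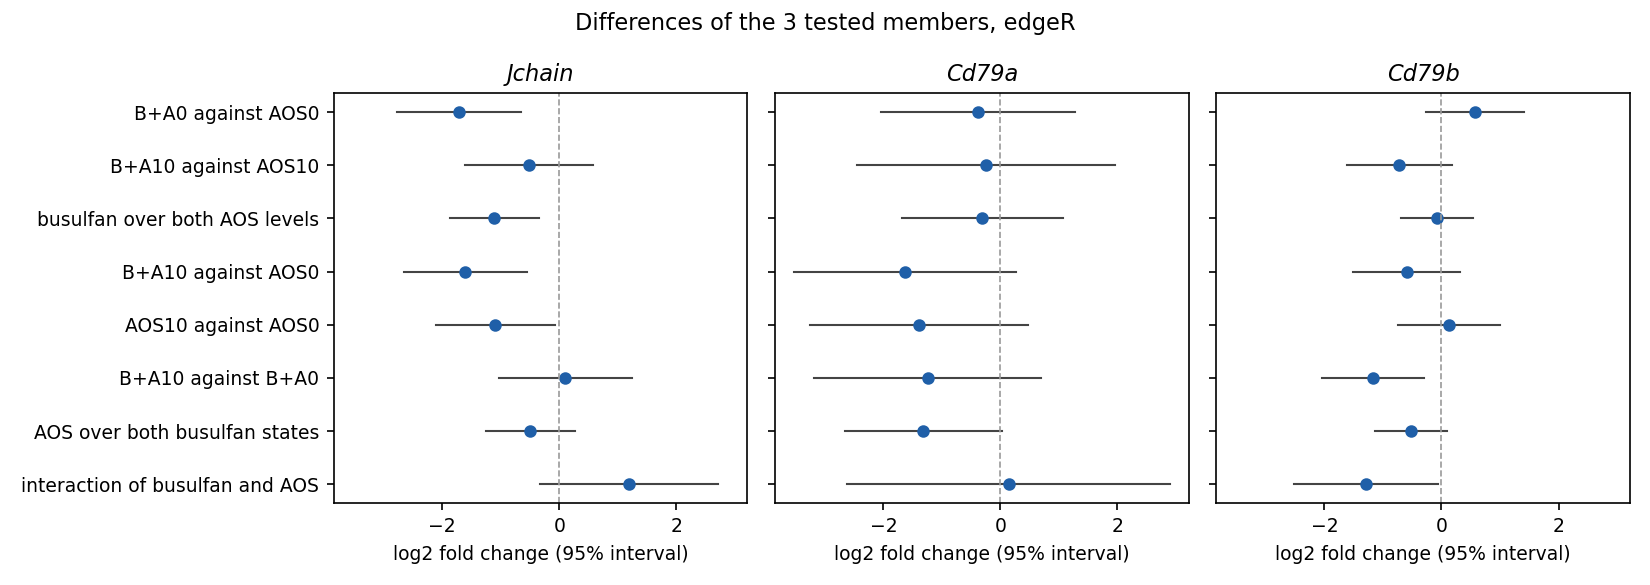
Points are edgeR log2 fold changes of the 3 tested members in 8 comparisons, and lines are their 95% intervals. The Jchain interval lies below 0 for B+A0 against AOS0, B+A10 against AOS0, AOS10 against AOS0 and the average over both AOS levels, yet no adjusted p is under 0.05. Cd79a intervals are the widest of the 3.

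How alike the members were over the libraries is given as a description, across 12 libraries that include the groups' differences. Jchain and Mzb1 were the most alike pair (Pearson r = 0.78, Spearman rho = 0.90, on log2 of CPM plus 0.5). Cd79a and Ms4a1 followed with r = 0.67 and rho = 0.53. The receptor pair, Cd79a and Cd79b, had r = 0.32 and rho = 0.09. At these counts a weak value says little.

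Among 11637 candidates whose mean reached 1 CPM, those most like Jchain were Nudt16 (r = 0.89), Ifitm1 (0.88), Sat1 (0.88), Pik3c2b (0.87) and Dirc2 (0.87). Those most like Cd79a were Slc30a1 (0.91), Spryd7 (0.88) and Slc5a8 (0.85), and those most like Cd79b were Rogdi (0.89), Kdelr3 (0.87) and Nudt1 (0.86). No B lineage gene was among the 5 closest of any of these 3 members. That says little, since the floor of 1 CPM kept Cd79a, Pou2af1, Ms4a1, Mzb1, Tnfrsf17 and Pax5 out of the candidates in advance. The other members' nearest genes, at r of 0.90 to 0.92, were Tbce for Mzb1, Tnfaip1 for Pou2af1, Plekha8 for Tnfrsf17 and Fbxo32 for Ms4a1. With this many candidates and few libraries, such r values carry no p. Per library, Tnfrsf17 had 0 to 1 counts, Mzb1 1 to 6 and Ms4a1 0 to 8, so their r values reflect where a few reads fell.

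Other genes of B cell identity ranged widely in level, and many were sparse. Of 23 such genes, including Cd79a, Cd79b and Ms4a1, 7 were tested and edgeR called none in any comparison, beside 3.64% of all tested genes in B+A0 against AOS0. Cd37, a tetraspanin of B cells and other leukocytes, averaged 2.64 ± 0.60 CPM in AOS0 and 1.00 ± 0.44 CPM in B+A0 (SD, n = 3; log2 fold change -1.39, unadjusted p = 0.00588, adjusted p = 0.0795, edgeR). Spib, a transcription factor of B cells and of M cells, averaged 4.94 ± 1.07 and 3.37 ± 0.23 CPM (SD, n = 3; -0.55, unadjusted p = 0.0370, adjusted p = 0.194, edgeR). The AOS0 and B+A0 libraries did not overlap for either gene, as was so for 29% of all tested genes. Btk, of the same list, also had no overlap but was higher in B+A0 (log2 fold change 0.41, 95% interval -0.29 to 1.10, adjusted p = 0.505, edgeR). Cd37, Spib and Btk are named after their values were seen. Pax5, the transcription factor that fixes B cell fate, had 17 counts over all 12 libraries, and Cxcr5, the receptor that brings B cells into follicles, had 27. Tnfrsf13c, the receptor through which B cells are kept alive by BAFF, had 15 counts in the AOS0 libraries together, 4 in AOS10, 8 in B+A0 and 2 in B+A10. Fcer2a, a low-affinity IgE receptor of B cells, had group means of 0.278 to 0.468 CPM. The abundant members of that list, Blnk at 51.0 CPM and Bcl11a at 20.1 CPM, were far above Pax5 at 0.0929 CPM, so the list's summed level is not a measure of B cells.

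Several follicle genes were close to absent, while others were expressed. Over all 12 libraries Cr2, of follicular dendritic cells and B cells, had 4 counts, Cxcl13, the follicle chemokine, had 10, and Madcam1, an adhesion molecule of mucosal vessels, had 1. Of 14 germinal centre and follicle genes, 12 were in the table and 4 were tested, namely Bcl6, S1pr2, Ltb and Ccl20, at 13.1, 2.34, 1.90 and 0.923 CPM over all libraries. Bcl6, which directs germinal centre B cells and is also expressed elsewhere, rose in B+A10 against AOS0. It averaged 10.2 ± 1.47 CPM in AOS0 and 17.7 ± 2.10 CPM in B+A10 (SD, n = 3), a difference of 0.79 on the log2 scale (SE 0.15) with an adjusted p of 0.0259 by edgeR. Leaving out either of AOS0 replicates 1 and 3, or B+A10 replicate 1, ended that call (adjusted p = 0.0997 to 0.125, edgeR), as did the replicate block (0.0543) and a fit to the compared groups alone (0.0983). Averaged over both AOS levels, Bcl6 rose (0.61, adjusted p = 0.00791) and Ltb, lymphotoxin beta, fell by 1.45 on the log2 scale (adjusted p = 0.0211, both edgeR). The Ltb call ended when any 1 of AOS0 replicates 1 and 3, AOS10 replicate 2, B+A0 replicate 3 and B+A10 replicate 1 was left out (adjusted p = 0.0533 to 0.0563, edgeR), and that of Bcl6 held in all 19 alternatives.

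Of 15 plasma cell and secretion genes, 10 were tested. Xbp1, the transcription factor of the secretory programme in plasma cells and in epithelial secretory cells, was the only one called. It averaged 203 ± 18.1 CPM in AOS0 and rose to 266 ± 19.9 CPM in B+A0 (SD, n = 3), by 0.39 on the log2 scale (SE 0.08) with an adjusted p of 0.0295 by edgeR. Leaving out any 1 of the AOS0 libraries, or B+A0 replicate 3, ended the call (adjusted p = 0.0530 to 0.129, edgeR), as did the replicate block (0.0574) and a fit to the compared groups alone (0.0694). Xbp1 was also called in the average over both AOS levels (0.30, adjusted p = 0.0167, edgeR), and that call held in all 19 alternatives. The median of the 10 genes in B+A0 against AOS0 was 0.05, beside -0.01 over all tested genes. Prdm1, which represses the B cell programme in plasma cells, averaged 3.09 CPM in AOS0 and 3.33 CPM in B+A0 (log2 fold change 0.10, 95% interval -0.66 to 0.86). Derl3, a plasma cell gene of protein quality control, averaged 0.621 and 0.651 CPM (0.08, -0.92 to 1.08), so neither had a lower mean in B+A0 as Jchain had. Slamf7, a surface receptor of plasma cells and of cytotoxic cells, had a lower one, 0.264 ± 0.230 CPM against 0.928 ± 0.257 CPM in AOS0 (SD, n = 3). Its groups did not overlap (-1.78, 95% interval -3.65 to 0.09, adjusted p = 0.240, edgeR). Fkbp11, of the same list, had a higher mean in B+A0, 8.96 ± 2.30 CPM against 5.70 ± 1.39 CPM in AOS0 (SD, n = 3). Its groups did not overlap either (0.65, 95% interval 0.18 to 1.13, adjusted p = 0.104, edgeR). Of all tested genes, 29% had no overlap in this comparison. Slamf7 and Fkbp11 are named after their values were seen. Irf4, a transcription factor that plasma cells need, had 16 counts in AOS0, 13 in AOS10, 8 in B+A0 and 11 in B+A10, and Tnfrsf13b, which encodes the receptor TACI, had 15, 6, 7 and 7. Sdc1, which encodes the plasma cell surface marker CD138, is also an epithelial gene and was at 141 CPM over all libraries. The immunoglobulin constant region genes, the products that the J chain joins, are not analysed here.

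The genes that bring IgA plasma cells to the gut and export their product included 4 that fell in B+A0 against AOS0. Of 14 genes, 10 were tested, all 10 had estimates below 0 in B+A0 against AOS0, and 4 passed edgeR's test, beside 1.94% of all tested genes called lower there. The list had a median of -0.57 in that comparison beside -0.01 over all genes. Itgb7, an integrin chain of gut-homing lymphocytes, averaged 9.70 ± 3.64 CPM in AOS0 and fell to 2.78 ± 1.25 CPM in B+A0 (-1.80 on the log2 scale, SE 0.42, adjusted p = 0.0376). Ccr9, the gut-homing chemokine receptor, averaged 3.67 ± 0.97 CPM and fell to 1.37 ± 0.61 CPM (-1.42, SE 0.35, adjusted p = 0.0443), and its ligand Ccl25, made by the epithelium, fell from 582 ± 12.5 CPM to 415 ± 71.2 CPM (-0.49, SE 0.11, adjusted p = 0.0325). Tgfb1, a cytokine that induces the switch to IgA, fell from 3.17 ± 0.90 CPM to 1.35 ± 0.60 CPM (-1.23, SE 0.31, adjusted p = 0.0457, all by edgeR, SD with n = 3).

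None of these 4 calls held when either of AOS0 replicates 1 and 3, or either of B+A0 replicates 2 and 3, was left out (adjusted p = 0.0915 to 0.189, edgeR), and that of Ccl25 did not hold without AOS0 replicate 2 (adjusted p = 0.0752). All 4 were also lost with the replicate block (0.0563 to 0.0744) and in a fit to the compared groups alone (0.0593 to 0.103). In B+A10 against AOS10, Itgb7 gave -0.07 (95% interval -0.92 to 0.78) and Tgfb1 -0.04 (-0.65 to 0.57). Ccr9 gave -0.55 (-1.27 to 0.16) and Ccl25 -0.29 (-0.53 to -0.06) there, and none of the 4 was called by edgeR. Pigr, which carries J chain-linked IgA through the epithelium, averaged 5998 CPM in AOS0 and 4835 CPM in B+A0 (-0.31, 95% interval -0.50 to -0.12, adjusted p = 0.0686, edgeR). Ccl28, an epithelial chemokine that attracts IgA plasma cells, gave -0.43 (adjusted p = 0.0888, edgeR), while its receptor Ccr10 had only 6 to 8 counts per group. Tnfsf13b, which encodes BAFF, gave -0.41 (adjusted p = 0.218, edgeR). Averaged over both AOS levels, Pigr fell by 0.27 (adjusted p = 0.0278) and Tnfsf13, which encodes APRIL, the ligand of the Tnfrsf17 product, fell by 0.32 on the log2 scale (adjusted p = 0.0390). Ccl25 and Ccr9 were the other genes of this list called there (adjusted p = 0.0154 and 0.0338, all edgeR), beside 2.73% of all tested genes called lower. Itgb7 gave -0.94 (adjusted p = 0.0709) and Tgfb1 -0.63 (adjusted p = 0.0857) in that average, neither called by edgeR. Of 19 alternatives, the call of Ccl25 held in 19, of Pigr in 11 (adjusted p up to 0.0822), of Tnfsf13 in 10 (up to 0.0962) and of Ccr9 in 10 (up to 0.0853). Each loss came from leaving out 1 library or, for Tnfsf13 and Ccr9, also from the replicate block.

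**Figure D4:**
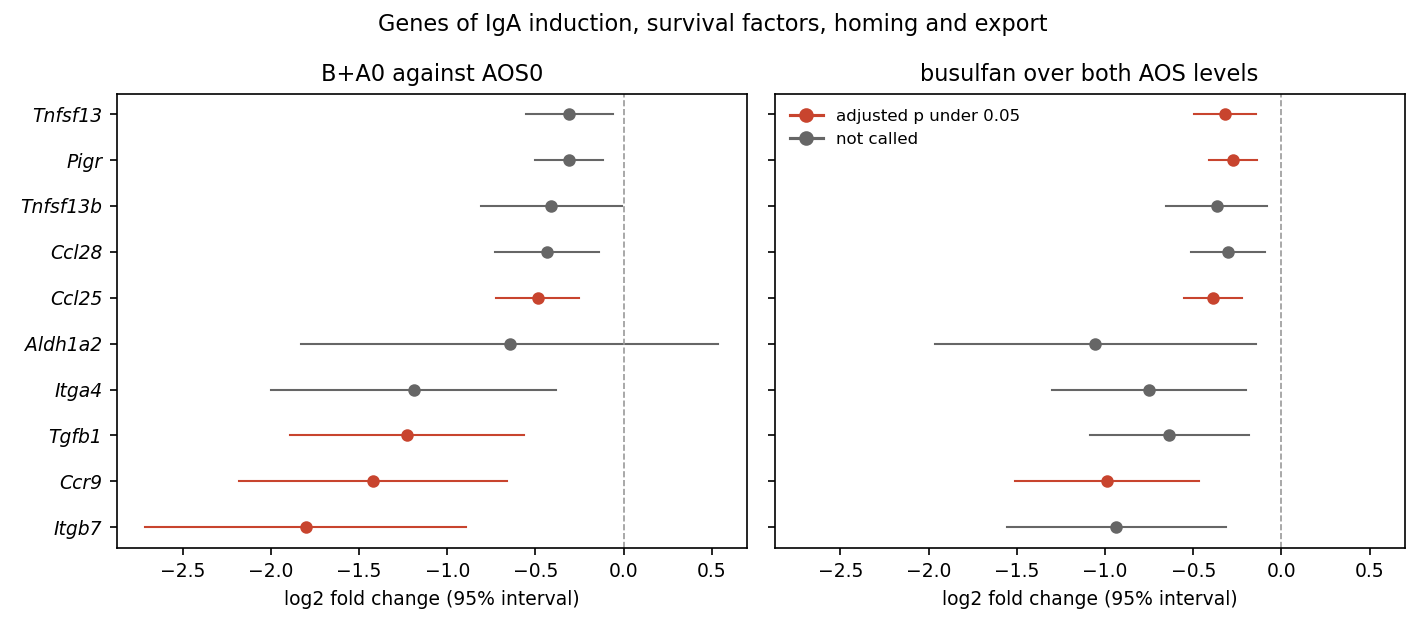
Points are edgeR log2 fold changes of the 10 tested genes of IgA induction, survival factors, homing and export, and lines are 95% intervals, in B+A0 against AOS0 (left) and averaged over both AOS levels (right). Red marks an adjusted p under 0.05: Ccl25, Tgfb1, Ccr9 and Itgb7 on the left, and Tnfsf13, Pigr, Ccl25 and Ccr9 on the right. Every point lies below 0.

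Several genes of that list are shared with T cells, whose markers moved between the same groups. The summed level of Cd3d, Cd3e, Cd3g, Cd4, Cd8a, Cd8b1, Cd5 and Lck ranged from 49.4 to 80.8 CPM in AOS0, 41.6 to 58.3 CPM in AOS10, 14.1 to 30.7 CPM in B+A0 and 29.0 to 73.5 CPM in B+A10. Of these 8 T cell genes, 6 were called lower in B+A0 against AOS0 by edgeR, beside 1.94% of all tested genes, and none was at 0 in any library. Mast cell markers averaged 94.3 ± 41.6 CPM in AOS0 and 24.0 ± 1.95 CPM in B+A0, with all 4 called lower. These T cell and mast cell calls were not followed through the alternative fits. Over all genes, edgeR's 449 calls in this comparison became 21 to 1099 when 1 library was left out. Of 3 tested markers of NK and cytotoxic cells, 1 was called lower there, Gzma (-2.14, adjusted p = 0.0235, edgeR). Of 4 tested macrophage and dendritic cell markers, 1 was, Itgax (-2.26, adjusted p = 0.00794, edgeR). The macrophage and dendritic cell sum averaged 78.5 CPM in AOS0 and 76.9 CPM in B+A0, mostly from Cd14 at 72.8 and 74.9 CPM. The part of these cells in the differences of Itgb7, Ccr9 and Tgfb1 was not tested.

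B lineage markers were summed in the same way. The summed level of Ms4a1, Cd79a, Cd79b, Cd22 and Pax5 ranged from 2.16 to 5.10 CPM in AOS0, 1.66 to 3.18 CPM in AOS10, 1.85 to 4.89 CPM in B+A0 and 1.06 to 1.88 CPM in B+A10. The B+A10 libraries lay below all AOS0 libraries, but only narrowly. The closest were B+A10 replicate 1 with 31 counts and AOS0 replicate 2 with 33. Of single tested genes, 17.9% had no overlap between these groups, and Cd79a and Cd79b each overlapped. B+A0 overlapped with AOS0 through Cd79a in replicate 1 and Cd79b in replicate 3. Plasma cell markers in the table (Jchain, Mzb1, Tnfrsf17, Derl3 and Prdm1) summed to 6.30 to 15.1 CPM in AOS0, 4.36 to 8.08 CPM in AOS10, 3.51 to 8.53 CPM in B+A0 and 5.58 to 7.25 CPM in B+A10. Their means in AOS10, B+A0 and B+A10 were 5.83, 5.92 and 6.20 CPM, beside 9.98 CPM in AOS0, and the 3 groups each overlapped with AOS0. Prdm1 was a large part of these sums, at means of 2.39, 3.33 and 3.33 CPM in those groups and 3.09 CPM in AOS0. It reached 5.40 CPM in a B+A0 library, so the overlap of the sums is not that of Jchain. In such tissue RNA, fewer cells of a type and less RNA per cell cannot be told apart.

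**Figure D5:**
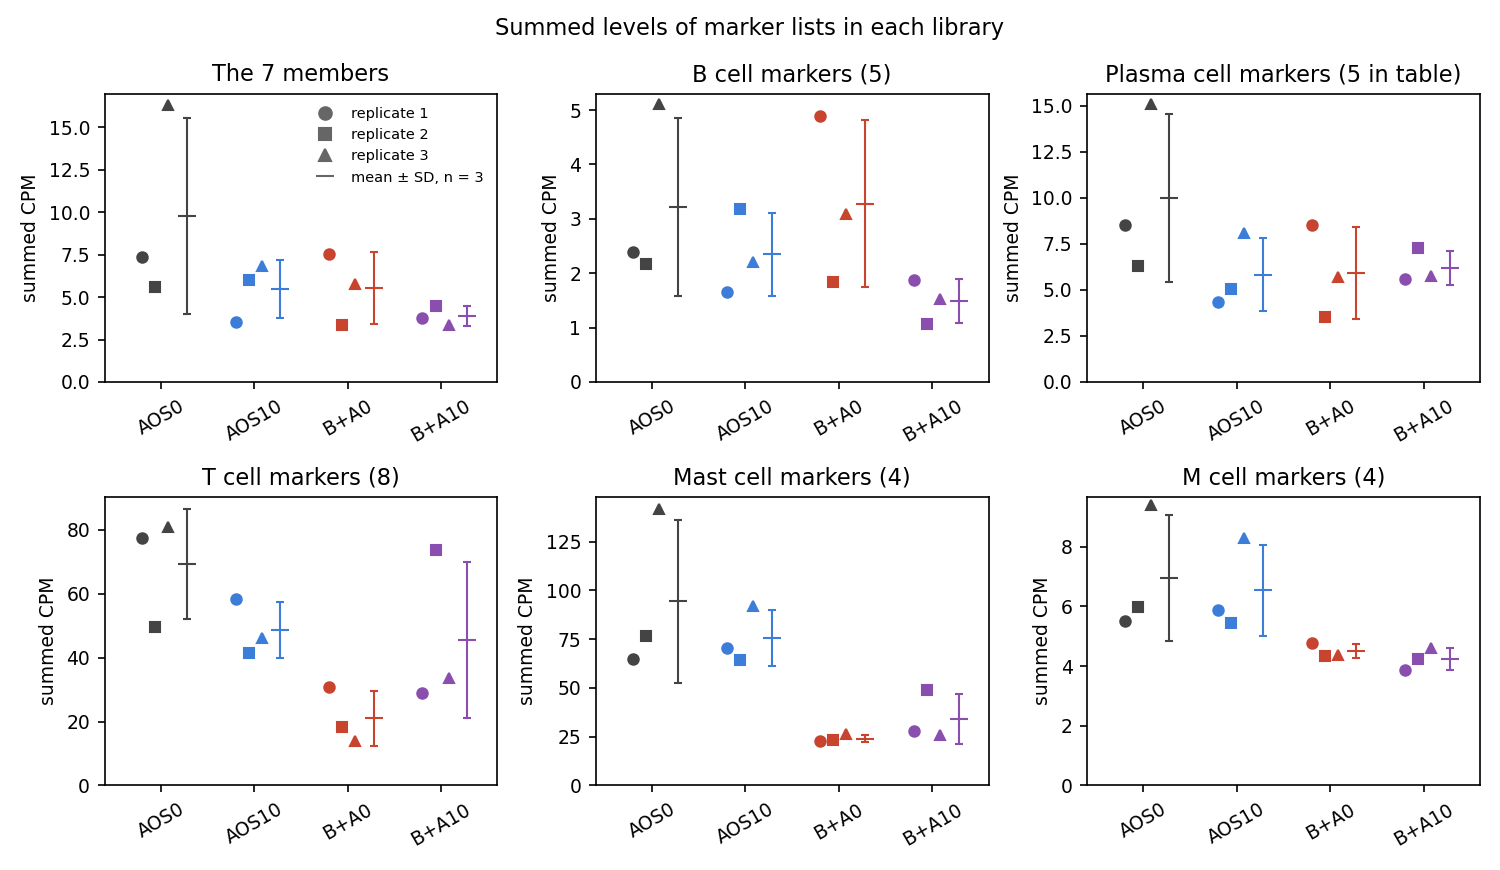
Each point is the summed CPM of a marker list in 1 library, with the mean ± SD (n = 3), and each panel has its own scale from 0. T cell and mast cell sums have their lowest means in B+A0, where T cell sums are 14.1 to 30.7 CPM. B cell sums in B+A0 overlap with those of AOS0, and the lowest mean is that of B+A10.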

How the data were processed

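The deposited table held RNA-seq values of 12 small intestine libraries, with mm10 as the genome build per the submitters' processing notes. Aligner, counter, annotation release and strandedness were not stated in any source available. Expected counts, which the authors deposited under the header of read counts, were rounded, since 8.90% to 9.33% of values were not whole (tolerance 1e-06). The authors deposited further expression values with no unit in the file headers; they were taken as FPKM, scaled by the authors to length and library total, because count divided by value followed the library total within each gene. Deposited group averages were not used. Members and gene lists were chosen with earlier results of these data known. Some genes of the lists are not reported here and stand in no list count or sum.

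The main test was edgeR 4.0.16 under R 4.3.3, with filterByExpr by group, TMM scaling, a single quasi-likelihood fit to all 12 libraries and Benjamini-Hochberg adjustment over 12329 genes at 0.05. Each SE was obtained by dividing the unshrunken estimate by the square root of F. No replicate pair agreed within counting noise (chi-square per degree of freedom 8.28 to 35.4). The code was tested on simulated data. Genes named by rule are all members, genes of 5 wider lists with an adjusted p under 0.05, examples from a fixed set of B lineage genes, and up to 5 genes nearest to a member by Pearson r of log2(CPM + 0.5). Cell type markers are named as well. Cd37, Spib, Btk, Slamf7 and Fkbp11 were added after their values were seen. Other genes of the wider lists, such as Blnk, Bcl11a, Madcam1, S1pr2 and Ccl20, are named outside the rule. Alternatives were DESeq2 1.42.0, its size factors in edgeR, no filter or a mean of 1 CPM, only the groups compared, a replicate block, limma 3.58.1 on log2(FPKM + 1) or log2(FPKM + 0.1), and leaving out each library. Matplotlib 3.10.9 drew the figures.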

Additional observations from a re-analysis of the deposited data

How the results depend on the processing

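The count of members called was 0 in all 8 comparisons and stayed 0 in 123 of 127 alternative fits. DESeq2 called 1 member, Jchain, in B+A0 against AOS0, in B+A10 against AOS0 and in the average of busulfan over both AOS levels. In that average, leaving out 1 library at a time gave 0 to 1 members, with 1 when B+A10 replicate 2 was left out. With the replicate block the count was 0 in every comparison, and the Jchain difference in B+A0 against AOS0 was -1.61 (adjusted p = 0.0943, edgeR). Same-numbered libraries of different groups deviated together with r of -0.21 to 0.21, so the numbers were not taken as pairs; the block also lowered the count of all genes called in B+A0 against AOS0 from 449 to 193.

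Across alternatives, Jchain in B+A0 against AOS0 ran from -2.04 to -0.99, with adjusted p from 0.0107 to 0.259, and in B+A10 against AOS0 from -1.99 to -0.92, with adjusted p from 0.0311 to 0.416. Estimates that changed sign did so only when 1 library was left out, and none of them was called. For Cd79a these ran from -2.15 to 0.33 in B+A0 against AOS0, from -1.74 to 0.53 in B+A10 against B+A0, from -0.74 to 0.23 in B+A10 against AOS10, from -0.56 to 1.92 in the interaction and from -1.19 to 0.049 in the busulfan average. For Cd79b they ran from -0.22 to 0.40 in AOS10 against AOS0 and from -0.26 to 0.10 in the busulfan average, and for Jchain from -0.28 to 0.31 in B+A10 against B+A0. Cd79a had fewer alternatives, since it failed the filter on a mean of 1 CPM and, in some fits, edgeR's filter. Without any filter on low counts, Mzb1 and Ms4a1 in B+A0 against AOS0 gave -1.30 (adjusted p = 0.308) and -1.29 (adjusted p = 0.423, both edgeR). At 0 to 8 counts per library, depth limits what can be seen of Mzb1, Ms4a1 and Tnfrsf17. The cause of the changes was not tested.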
